A study of Mus musculus with 15 samples.

Results

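The perilipins (Plin1, Plin2, Plin3, Plin4 and Plin5) and the CIDE genes (Cidea, Cideb and Cidec) encode proteins that coat and enlarge the lipid droplets of fat cells. These 8 genes were chosen by family, and each was read from its own probe set among the 25206 probe sets of the deposited table. Expression was measured on 1-colour Affymetrix arrays from sorted adipocytes of UCP1/Tomato mice aged 8 to 10 weeks. Brown adipocytes (BAT, 3 arrays) were UCP1-positive cells from brown fat of untreated mice. The other UCP1-positive cells came from inguinal fat of treated mice. CL316243, which activates the beta-3 adrenergic receptor, was given to the CL mice (3 arrays). Roscovitine, which inhibits cyclin-dependent kinases, was given to the RS mice (2 arrays), and rosiglitazone, which activates PPARG, to the RG mice (3 arrays). White adipocytes (WAT, 4 arrays) were UCP1-negative cells from inguinal fat of untreated mice.

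The labels name the sorting marker UCP1(GFP) although the mice are called UCP1/Tomato, and the RS cells are labelled brite in one field and beige in another. A further RS array was not analysed here, and no untreated UCP1-positive inguinal cells were among the samples. The drug comparisons with WAT therefore combine treatment with the UCP1 gate, and the 2 cannot be told apart. The labels give no dose, treatment time or sex, and do not say whether arrays of a group came from separate animals, so the p-values measure the spread between these arrays, which may be technical.

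Triglyceride in a fat cell is stored in droplets bounded by a phospholipid monolayer that carries perilipins. In adipocytes, perilipin 1 restrains lipolysis by holding the ATGL coactivator CGI-58 (Abhd5) until protein kinase A phosphorylates it. Perilipin 5 is found mainly in oxidative tissues, where it links droplets to mitochondria, and perilipins 2 and 3 are present in most cell types. CIDE proteins gather at the contact between droplets and move lipid from the smaller to the larger one. Cidec (FSP27) does so in white fat with its large single droplet, and Cidea is best known from brown fat, whose cells hold many small droplets.

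Plin4 and Plin5 are neighbours on mouse chromosome 17, where 1648 bases separate the 2 gene models on the same strand, and Plin3 lies on the same chromosome. Against WAT, Plin2 and Plin3 were called higher in BAT and CL, Plin5 in BAT, CL and RG, Plin1 in RS and RG, and Plin4 in RG. A call in 1 group and not in another is not itself a difference between the groups. For Plin1, no pair among BAT, CL, RS and RG passed the test. With these calls in view, the sequences before the starts of the 5 perilipin genes are shown. They are RefSeq sequence of build GRCm38.p6, 5′ to 3′ along the gene (all on the minus strand), from 250 bases before the listed start up to the first base of the longest gene model. Capitals mark AGGTCA, an element bound by nuclear receptors, and CCAAT, the CCAAT box, each on either strand. The deposited table itself gives no build or positions.
Plin5 (chr17:56117607-56117798): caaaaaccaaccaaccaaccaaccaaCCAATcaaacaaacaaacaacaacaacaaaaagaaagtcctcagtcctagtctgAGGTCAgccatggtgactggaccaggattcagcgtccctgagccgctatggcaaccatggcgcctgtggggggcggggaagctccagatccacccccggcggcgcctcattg
Plin2 (chr4:86670218-86670309): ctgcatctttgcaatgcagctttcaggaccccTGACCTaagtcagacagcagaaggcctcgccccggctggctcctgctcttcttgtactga
Plin3 (chr17:56290512-56290761): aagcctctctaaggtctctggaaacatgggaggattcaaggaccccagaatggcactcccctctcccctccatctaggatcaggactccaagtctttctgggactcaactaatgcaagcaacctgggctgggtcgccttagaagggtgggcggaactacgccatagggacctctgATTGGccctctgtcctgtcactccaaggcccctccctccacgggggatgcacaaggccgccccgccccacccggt
Plin1 (chr7:79732905-79733026): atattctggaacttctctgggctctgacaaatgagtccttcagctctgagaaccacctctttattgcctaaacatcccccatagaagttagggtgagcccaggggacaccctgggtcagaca
Plin4 (chr17:56109949-56110032): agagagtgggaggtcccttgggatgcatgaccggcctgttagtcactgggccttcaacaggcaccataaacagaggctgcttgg
The sequence table held 7 of the 8 genes. In the full 250-base windows, AGGTCA stood before Plin5 and Plin2, that is 2 of 7 genes, against 15.8% of 27025 genes. CCAAT stood before 4 of 7 (Plin2, Plin3, Plin4 and Plin5), against 37.5% of genes, and TATAA before 3 (Plin4, Plin5 and Cideb), against 25.8%. The exact direct repeat of AGGTCA with 1 base (N) between the copies, the consensus form of the PPAR response element, was in none of the 7 and in 0.0407% of genes. The E-box CACGTG (6.86% of genes), the core of the cAMP response element, TGACG, (19.8%) and the ERR site TCAAGGTCA (0.422%) were also in none of the 7. All motifs were searched on both strands as exact matches within these 250 bases, so looser or more distant sites were not counted. TCAAGGTCA and the direct repeat contain AGGTCA.

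Ucp1, the gene behind the gate, was between 6.05 and 11.22 on the log2 scale of the deposited values in the 11 arrays labelled UCP1-positive, and between 3.20 and 4.47 in the 4 WAT arrays. RS 3 had the lowest Ucp1 of the positive arrays (6.05, against 8.43 in RS 4), and its mean endothelial marker level over 15 markers was -2.05 relative to the mean of all arrays, against -0.13 in RS 4. WAT 4 had the lowest mature adipocyte marker level. Over 21 markers without the droplet genes it was -1.85 there, beside -0.60 to -0.07 in WAT 1, WAT 2 and WAT 3, and UCP1-positive arrays spanned 0.01 to 0.57. Adipoq, the adiponectin gene, was 7.85 in WAT 4 and 9.84 to 10.47 in WAT 1, WAT 2 and WAT 3. The macrophage marker level (21 markers) was -1.15 to 0.04 in UCP1-positive arrays and 1.47 to 2.16 in WAT, with WAT 4 highest. In RNA from sorted cells, fewer cells of a type and less RNA per cell cannot be told apart.

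**Figure D1:**
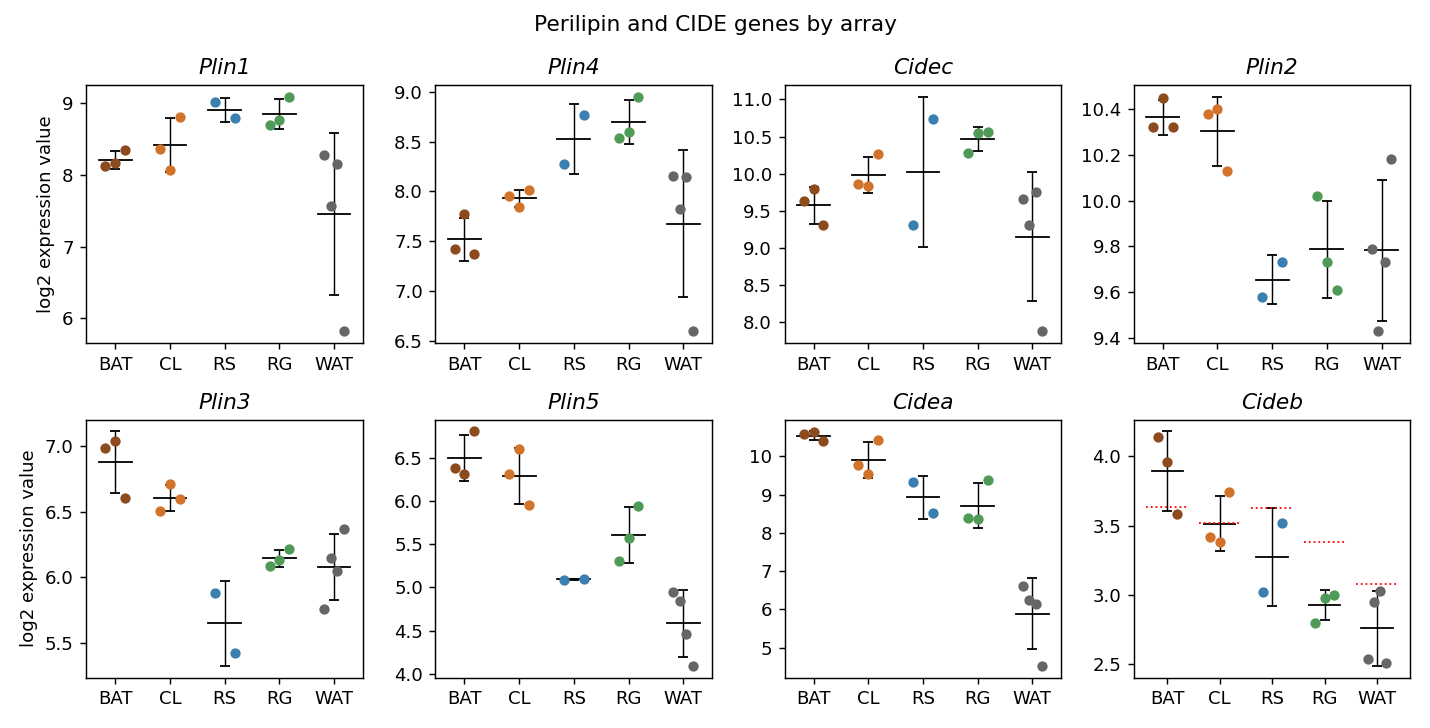
Log2 expression value of each of the 8 genes (vertical axis) in BAT, CL, RS, RG and WAT (horizontal axis). Points are arrays, black lines are group means and bars are SD; the red dotted line in the Cideb panel is the mean background mark of the group's arrays. Cidea lies between 8.37 and 10.63 in every UCP1-positive array and at 6.60 or below in WAT, while WAT 4 is the low point of Plin1, Plin4 and Cidec.

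In BAT, 5 of the 8 genes were higher than in WAT and none was lower at an adjusted p under 0.05 (limma, Benjamini-Hochberg over all probe sets), where 44% of all probe sets were called and 27.6% were higher. CL also had 5 higher and none lower, and in both groups these were Plin2, Plin3, Plin5, Cidea and Cideb. In CL, 25.2% of probe sets were called and 15.2% were higher. RS had 2 higher, Plin1 and Cidea, against 21.4% called and 11.1% higher. RG had 5 higher, Plin1, Plin4, Plin5, Cidea and Cidec, against 11.4% called and 5.19% higher. The mean of CL, RS and RG was higher than WAT for 6 of 8, all but Plin2 and Plin3 (31.1% of probe sets called, 18.5% higher). It was lower than BAT for 4, Plin3, Plin5, Cidea and Cideb (8.63% called, 5.44% lower). When 1 array was left out, the mean's call against WAT was lost for Cideb without WAT 1, WAT 4 or RS 4 (adjusted p 0.0717 to 0.110), for Cidec without WAT 4 or RS 4 (0.0656 to 0.0976) and for Plin4 without WAT 2, WAT 4, CL 1, CL 4, RS 4 or RG 4 (0.0512 to 0.126). Against BAT it was lost for Plin5 without BAT 1 or BAT 4 (adjusted p 0.0520 to 0.105), for Cideb without BAT 1, BAT 3, RS 3 or RG 2 (0.0517 to 0.129) and for Cidea without RG 2, RG 3, RS 4, CL 1, CL 3 or any BAT array (0.0518 to 0.0966). Plin4 passed the threshold against BAT without WAT 4 (0.86, adjusted p = 0.00468). The median log2 difference of the 8 genes was 0.78 in BAT, 0.80 in CL, 0.68 in RS and 1.02 in RG, beside 0.18, 0.13, 0.135 and 0.10 over all probe sets. For 21 mature adipocyte markers without the droplet genes it was 0.80, 0.83, 0.99 and 0.96. Without WAT 4 and RS 3 the medians of the 8 genes were 0.80, 0.64, 0.71 and 0.755, and those of the markers 0.45, 0.41, 0.69 and 0.53. RS then rested on RS 4 alone. These comparisons share the WAT arrays, so they are not independent of each other.

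Cidea, the brown-fat member of the CIDE family, had the widest span of group means of the 8 genes, 4.66 log2 units. Its values were 10.57, 10.63 and 10.41 in BAT, 9.77, 9.53 and 10.43 in CL, 9.33 and 8.53 in RS, 8.38, 8.37 and 9.38 in RG, and 6.60, 6.25, 6.15 and 4.52 in WAT. Every UCP1-positive array lay above every WAT array, and WAT 4 was the lowest of all. Against WAT the log2 difference was 4.66 ± 0.41 in BAT (SE, 3 against 4 arrays, adjusted p = 4.63e-06), 4.03 ± 0.41 in CL (adjusted p = 4.59e-05), 3.05 ± 0.46 in RS (adjusted p = 0.000914) and 2.83 ± 0.41 in RG (adjusted p = 0.000975). Without WAT 4 and RS 3 it was 4.20 in BAT, 3.58 in CL and 2.38 in RG, which passed the threshold. In RS it was then 2.20, from RS 4 alone.

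The order of the Cidea means was BAT (10.54 ± 0.11, SD), CL (9.91 ± 0.47), RS (8.93 ± 0.57), RG (8.71 ± 0.58) and WAT (5.88 ± 0.93). Neighbouring groups in this order did not pass the test except RG against WAT. RG was lower than BAT by 1.83 ± 0.44 on the log2 scale (SE, adjusted p = 0.0146), with no overlap between the arrays. The RS difference from BAT was -1.61 ± 0.49 (adjusted p = 0.0805), and it passed the threshold without WAT 4 (adjusted p = 0.0154). Without both WAT 4 and RS 3 it was -2.01, from RS 4 alone. The RG call against BAT was lost without RG 2 (adjusted p = 0.0580) or RG 3 (adjusted p = 0.0582). The CL difference from BAT was -0.63, with a 95% interval of -1.55 to 0.30. CL differed from RG by 1.20 (95% interval 0.27 to 2.13, adjusted p = 0.145), which passed the threshold without WAT 4 (adjusted p = 0.0395).

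Plin5, the perilipin of oxidative tissues, was also highest in BAT and CL. It had 6.38, 6.32 and 6.81 in BAT, 6.32, 6.61 and 5.96 in CL, 5.09 and 5.10 in RS, 5.31, 5.57 and 5.95 in RG, and 4.95, 4.84, 4.46 and 4.09 in WAT. All UCP1-positive arrays lay above the WAT arrays, and the BAT arrays lay above all RS and RG arrays. The log2 difference from WAT was 1.92 ± 0.23 in BAT (SE, 3.78-fold, adjusted p = 4.29e-05), 1.71 ± 0.23 in CL (3.28-fold, adjusted p = 0.000327) and 1.02 ± 0.23 in RG (adjusted p = 0.0118). In RS it was 0.51 ± 0.26 (adjusted p = 0.161). RG without RG 4 gave 0.86 (adjusted p = 0.0698).

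Plin5 was also lower in RS than in BAT, by 1.41 ± 0.27 on the log2 scale (SE, adjusted p = 0.0132), and lower in RS than in CL, by 1.20 ± 0.27 (adjusted p = 0.046). The RS values of 5.09 and 5.10 lay under all 6 BAT and CL values. RG was lower than BAT by 0.89 ± 0.24 (adjusted p = 0.0262). The RS call against CL was lost when any 1 array other than WAT 4, BAT 4 or RG 4 was left out (adjusted p 0.0522 to 0.146), the RS call against BAT without RS 3 (adjusted p = 0.0644), and the RG call against BAT without BAT 4, RG 2 or RG 3 (adjusted p 0.0750 to 0.105). The CL difference from RG was 0.69, with a 95% interval of 0.17 to 1.21 and an adjusted p of 0.136.

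Plin2 and Plin3, the perilipins of most cell types, also stood highest in BAT and CL, with smaller differences. Plin2 had 10.32, 10.45 and 10.32 in BAT, 10.38, 10.40 and 10.13 in CL, 9.58 and 9.73 in RS, 10.02, 9.73 and 9.61 in RG, and 9.79, 9.43, 9.73 and 10.18 in WAT. WAT 4 was the lowest WAT array for every perilipin and CIDE gene except Plin2 and Plin3, where it was the highest. For Plin2 it overlapped CL. The log2 difference from WAT was 0.58 ± 0.17 in BAT (SE, adjusted p = 0.0146) and 0.52 ± 0.17 in CL (adjusted p = 0.0397), while RS differed by -0.13 and RG by 0.00 with 95% intervals of -0.55 to 0.29 and -0.37 to 0.37. Plin2 was lower in RG than in BAT by 0.58 ± 0.19 (adjusted p = 0.0497), a call that was lost when any 1 array other than WAT 2, WAT 4, RS 3 or RS 4 was left out (adjusted p 0.0512 to 0.151). The BAT call against WAT was lost with quantile normalization (0.48, adjusted p = 0.0724). The CL call was lost without WAT 1, WAT 2, WAT 3 or any CL array (adjusted p 0.0532 to 0.113). RS differed from BAT by -0.71 (adjusted p = 0.072), which passed the threshold without WAT 4 (adjusted p = 0.0447).

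Plin3 had 6.99, 7.04 and 6.61 in BAT, 6.51, 6.71 and 6.60 in CL, 5.88 and 5.42 in RS, 6.09, 6.13 and 6.22 in RG, and 5.76, 6.15, 6.05 and 6.37 in WAT. BAT and CL lay above WAT in every array, RG lay inside the WAT range, and RS 4 was the lowest of all arrays. The log2 difference from WAT was 0.80 ± 0.17 in BAT (SE, adjusted p = 0.00233) and 0.52 ± 0.17 in CL (adjusted p = 0.0381), and RS differed by -0.43 ± 0.20 (adjusted p = 0.12). RS was lower than BAT by 1.23 ± 0.21 (adjusted p = 0.00583) and lower than CL by 0.96 ± 0.21 (adjusted p = 0.0386). RG was lower than BAT by 0.73 ± 0.19 (adjusted p = 0.0185). The RS call against BAT was lost when only BAT and RS were fitted (adjusted p = 0.103). The CL call against WAT was lost without WAT 1, WAT 2, WAT 3, RG 2 or any CL array (adjusted p 0.0507 to 0.106). The RS call against CL was lost without WAT 2, WAT 3, RG 2, RG 3 or any CL or RS array (adjusted p 0.0520 to 0.140), and the RG call against BAT without BAT 1, BAT 3, RG 2 or RG 3 (adjusted p 0.0528 to 0.0642).

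The RS against BAT comparison called 2 of 8 members, Plin3 and Plin5, both lower, where 3.67% of probe sets were called and 2.34% were lower. The RG against BAT comparison called 6 of 8 (Plin4 higher, and Plin2, Plin3, Plin5, Cidea and Cideb lower), where 14.3% of probe sets were called, 5.85% higher and 8.42% lower. The CL against BAT comparison called none, and none had an unadjusted p under 0.05, where 2.05% of probe sets were called. The RS against CL comparison called 2, Plin3 and Plin5, both lower (1.27% of probe sets, 0.797% lower), RS against RG none (0.682% of probe sets; 1 at an unadjusted p under 0.05) and CL against RG none (2.87% of probe sets; 6 at an unadjusted p under 0.05).

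**Figure D2:**
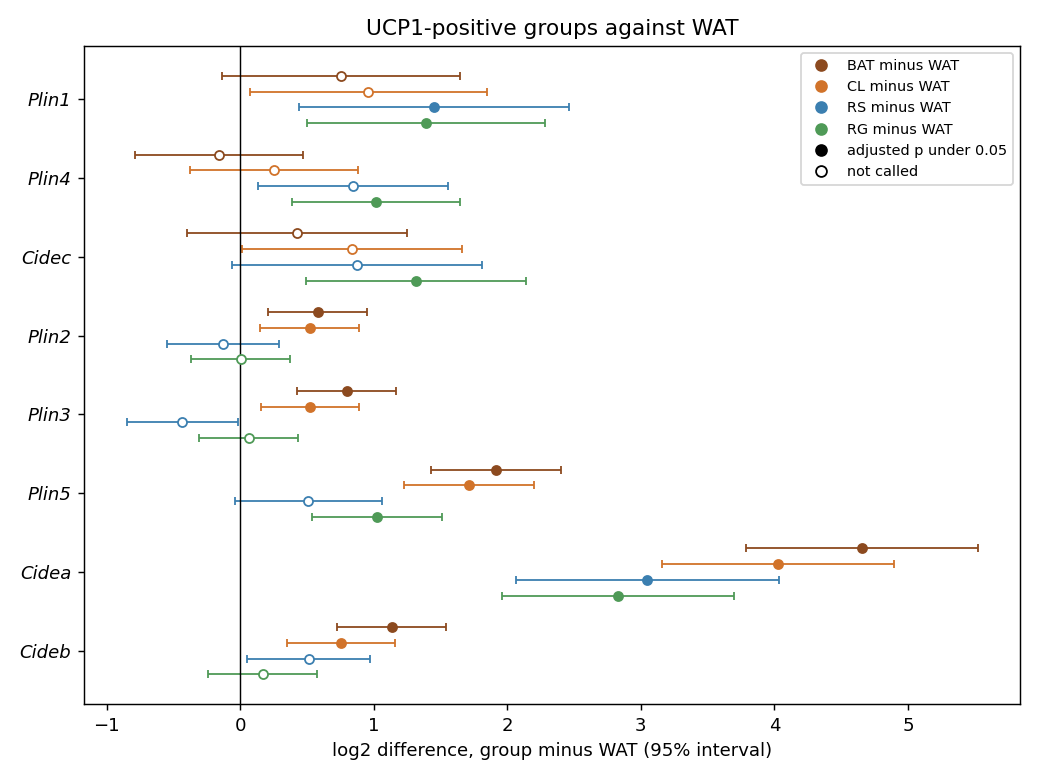
Log2 difference of BAT, CL, RS and RG from WAT (horizontal axis, bars are 95% intervals) for the 8 genes (vertical axis). Filled points have an adjusted p under 0.05, open points do not. Cidea is filled in all 4 comparisons, at 4.66, 4.03, 3.05 and 2.83, and Plin2 and Plin3 are filled in BAT and CL but open in RS and RG.

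Plin1, the perilipin that governs adipocyte lipolysis, was 8.12, 8.16 and 8.35 in BAT, 8.36, 8.07 and 8.81 in CL, 9.02 and 8.79 in RS, 8.69, 8.76 and 9.09 in RG, and 8.27, 7.57, 8.15 and 5.82 in WAT. RS and RG lay above every WAT array, and CL and BAT overlapped WAT. WAT 4 was the lowest array by far. The log2 difference from WAT was 1.45 ± 0.47 in RS (SE, adjusted p = 0.0411) and 1.39 ± 0.42 in RG (adjusted p = 0.0433), while CL differed by 0.96 ± 0.42 (adjusted p = 0.102) and BAT by 0.76 ± 0.42 (adjusted p = 0.151). Without WAT 4 these were 0.42 in CL (adjusted p = 0.202) and 0.21 in BAT (adjusted p = 0.461). Without WAT 4 and RS 3 the RS difference was 0.79, from RS 4 alone, and the RG difference 0.85 (adjusted p = 0.0332). The RS call was lost without WAT 2, CL 1, RG 2 or RG 3. It was also lost without RS 3 or RS 4, where RS rested on the other array alone. The RG call was lost without WAT 2, CL 1, CL 3 or any BAT or RG array (adjusted p 0.0504 to 0.147), and CL passed the threshold without WAT 1 (1.23, adjusted p = 0.0460). Across the 3 inguinal treated groups the mean difference from WAT was 1.27 ± 0.34 (adjusted p = 0.0126), and 0.72 without WAT 4 (adjusted p = 0.0165).

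Plin4, an adipocyte perilipin, had 7.42, 7.77 and 7.37 in BAT, 7.95, 7.84 and 8.01 in CL, 8.28 and 8.77 in RS, 8.54, 8.60 and 8.95 in RG, and 8.15, 7.82, 8.14 and 6.60 in WAT. RG and RS lay above all BAT, CL and WAT arrays. The RG difference was 1.02 ± 0.30 from WAT on the log2 scale (SE, adjusted p = 0.0378) and 1.18 ± 0.32 from BAT (adjusted p = 0.0243). RS differed from WAT by 0.85 ± 0.34 (adjusted p = 0.0792) and from BAT by 1.00 ± 0.35 (adjusted p = 0.125). Without WAT 4, the RG difference from WAT was 0.66 (adjusted p = 0.0494), Plin4 was lower in BAT than in WAT by 0.52 (adjusted p = 0.0425), RS differed from BAT by 1.00 (adjusted p = 0.0164), and CL differed from RG by -0.76 (adjusted p = 0.0392). Of the RG calls, the one against WAT was lost without WAT 2, RG 2, RG 3 or RG 4 (adjusted p 0.0616 to 0.145), and the one against BAT without BAT 1, BAT 4, RG 2, RG 3 or RG 4 (adjusted p 0.0525 to 0.082).

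Cidec (FSP27), the CIDE protein of white fat droplets, had 9.63, 9.79 and 9.30 in BAT, 9.86, 9.83 and 10.26 in CL, 9.30 and 10.74 in RS, 10.28, 10.55 and 10.56 in RG, and 9.66, 9.31, 9.75 and 7.87 in WAT. RG and CL lay above all WAT arrays, and the 2 RS arrays stood apart, RS 3 as low as the lowest BAT array and RS 4 above all others. RG was higher than WAT by 1.32 ± 0.39 on the log2 scale (SE, adjusted p = 0.0403). CL differed by 0.84 (adjusted p = 0.122), RS by 0.87 (adjusted p = 0.158) and BAT by 0.43 (adjusted p = 0.385). Without WAT 4 the difference was 0.41 in CL (adjusted p = 0.332) and 0.00 in BAT. Without RS 3 the RS difference was 1.59, and without both WAT 4 and RS 3 it was 1.17. Both rest on RS 4 alone, the higher of the 2 RS arrays. RG differed from BAT by 0.89 (adjusted p = 0.155), which passed the threshold without WAT 4 (adjusted p = 0.0475). The RG call against WAT was lost without WAT 2, WAT 4, BAT 1, CL 1, RG 2, RG 3 or RG 4 (adjusted p 0.0508 to 0.125).

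**Figure D3:**
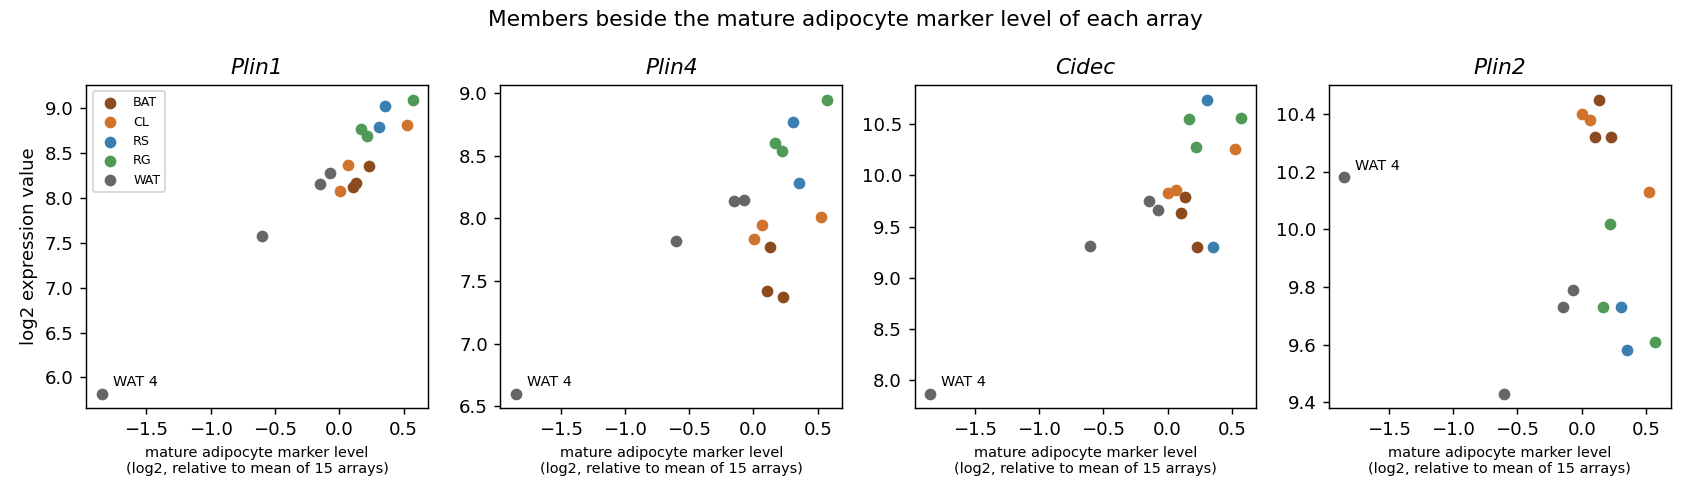
Log2 value of Plin1, Plin4, Cidec and Plin2 (vertical axis) against the mature adipocyte marker level of each array (horizontal axis, log2, mean over 21 markers, relative to the mean of the 15 arrays). Points are arrays coloured by group. WAT 4 (labelled) lies at -1.85 on the horizontal axis, with the lowest Plin1 (5.82), Plin4 (6.60) and Cidec (7.87) of all arrays and a Plin2 of 10.18, the highest of WAT.

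Cideb, the CIDE gene best known from liver, was close to the background mark of the array. It had 4.14, 3.96 and 3.58 in BAT, 3.42, 3.38 and 3.74 in CL, 3.02 and 3.52 in RS, 2.80, 2.98 and 3.00 in RG, and 2.54, 2.95, 3.03 and 2.51 in WAT. The mark is the 95th percentile of 1354 olfactory and vomeronasal receptor probe sets on each array, and lay between 3.01 and 3.70. It differed by group, at 3.01 to 3.13 in WAT, 3.54 to 3.70 in BAT and 3.38 to 3.60 in CL. In RS it was 3.58 to 3.66 and in RG 3.29 to 3.43. The mark was thus higher in every UCP1-positive array than in WAT, and its part in the Cideb differences was not tested. Cideb was at or under it in 1 of 3 BAT, 2 of 3 CL, 2 of 2 RS, 3 of 3 RG and 4 of 4 WAT arrays. The fit gave a log2 difference from WAT of 1.14 ± 0.19 in BAT (SE, adjusted p = 0.000442) and 0.76 ± 0.19 in CL (adjusted p = 0.0114), and RG was lower than BAT by 0.97 ± 0.20 (adjusted p = 0.00863). Without CL 4 the CL difference was 0.64 (adjusted p = 0.0591).

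From high to low, the group means ran RS, RG, CL, BAT, WAT for Plin1, RG, RS, CL, WAT, BAT for Plin4, and RG, RS, CL, BAT, WAT for Cidec. They ran BAT, CL, RG, WAT, RS for Plin2 and Plin3, BAT, CL, RG, RS, WAT for Plin5, and BAT, CL, RS, RG, WAT for Cideb. In these 7 genes no pair of neighbouring groups in the order passed the test.

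**Figure D4:**
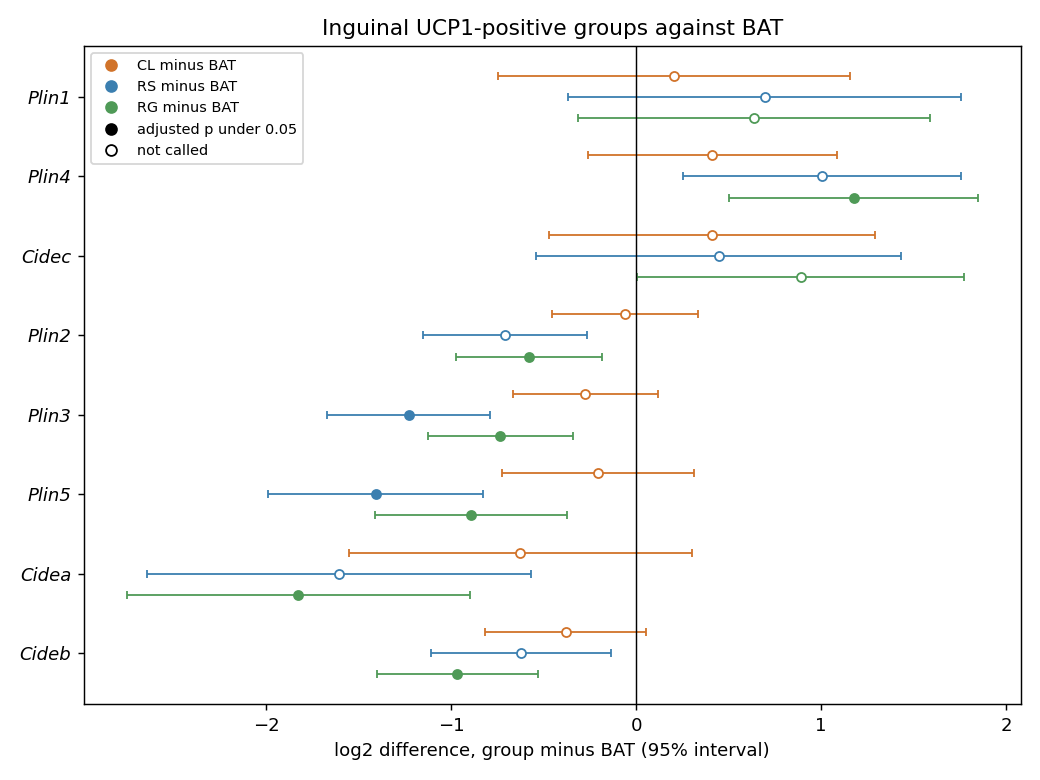
Log2 difference of CL, RS and RG from BAT (horizontal axis, bars are 95% intervals) for the 8 genes (vertical axis). Filled points have an adjusted p under 0.05, open points do not. Plin4 in RG is filled on the higher side (1.18), Plin3 and Plin5 are filled on the lower side in RS and RG, and no CL point is filled.

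The balance between members was read within each array, which removes any shift common to both genes. Cidea minus Cidec, each taken relative to its own WAT mean, was 4.23 ± 0.14 in BAT, 3.19 ± 0.24 in CL, 1.06 and 3.30 in the 2 RS arrays, 1.51 ± 0.52 in RG and 0.00 ± 0.26 in WAT (log2, SD). The difference was above 1 in all 11 UCP1-positive arrays. Plin5 minus its chromosomal neighbour Plin4 was 2.08 ± 0.45 in BAT, 1.46 ± 0.41 in CL, -0.34 ± 0.34 in RS, 0.01 ± 0.13 in RG and 0.00 ± 0.49 in WAT. The BAT and CL values, between 1.04 and 2.53, lay above those of all other arrays, between -0.59 and 0.58. Plin5 minus Plin1 did not separate in this way. It was 1.03 to 1.33 in BAT and 0.02 to 1.41 in CL, beside -0.82 to 1.14 in WAT. For Plin2 minus Plin1 and Plin3 minus Plin1, BAT and CL also overlapped WAT. For Plin4 minus Plin1, BAT and CL lay below WAT and overlapped RS. All of these pairs were picked after the values were seen and carry no test.

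**Figure D5:**
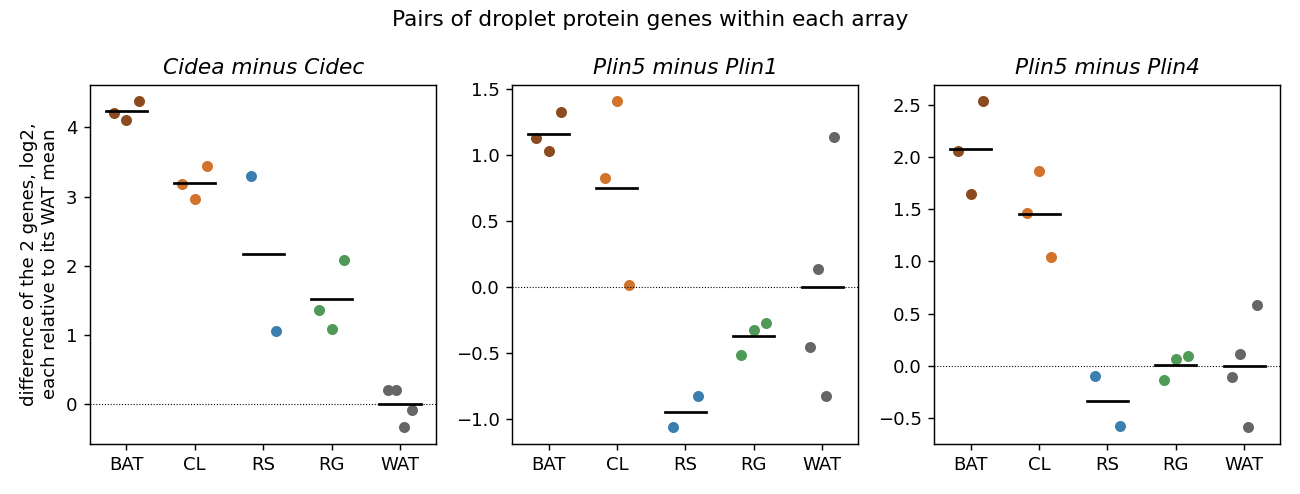
Difference between paired genes within each array, log2, each gene relative to its WAT mean (vertical axis), by group (horizontal axis). Points are arrays and black lines are group means. Cidea minus Cidec lies at 4.23 in BAT and 3.19 in CL on average, and Plin5 minus Plin4 at 2.08 and 1.46, where the RS, RG and WAT arrays lie between -0.59 and 0.58. Plin5 minus Plin1 lies at 1.16 in BAT and 0.75 in CL on average, and both overlap WAT.

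Genes whose profile over the 15 arrays lay nearest to a member were found by the root mean square difference after centring each gene on its own mean. Nearest to Cidea were Otop1, a proton channel (0.43), Cox7a1, a cytochrome c oxidase subunit (0.62), and Coq8a, which acts in coenzyme Q synthesis (0.76). Nearest to Plin5 were Ndufab1, the mitochondrial acyl carrier protein (0.28), Hadha, a subunit of the trifunctional protein of beta-oxidation (0.31), and the receptor gene Fpr-rs6 (0.32), which had group means of 0.91 to 2.63, below the background mark. Plin1 lay nearest to Acvr1c, the activin receptor ALK7 (0.20), Adig, encoding adipogenin (0.20), and Prxl2a (0.22). Plin4 lay nearest to Ghr, the growth hormone receptor (0.15), Car5b, a mitochondrial carbonic anhydrase (0.19), and Bcat2, which transaminates branched-chain amino acids (0.20). Cidec lay nearest to Adhfe1 (0.21), Trarg1, a regulator of GLUT4 traffic (0.23), and Gstz1 (0.24). Among the members themselves, Plin4 and Cidec were nearest to each other (0.33), and the member nearest to Plin3 was Plin2 (0.27). Plin2 spanned 0.71 between group means and was not searched. Plin3 lay nearest to Eif1ad, Brap and Ak1 (0.21 each), and Cideb to Txn2, Klra10 and Rpl17-ps10 (0.17 to 0.18); group means of Klra10 (1.14 to 2.18) and Rpl17-ps10 (0.98 to 2.06) lay below the background mark.

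Genes that act with the perilipins in lipolysis were called in part. Of 14 measured partners and lipolysis genes, 5 were higher and 1 lower in BAT than in WAT, 6 and 0 in CL, 4 and 1 in RS, and 5 and 0 in RG. Over all probe sets 44%, 25.2%, 21.4% and 11.4% were called, with 27.6%, 15.2%, 11.1% and 5.19% higher. Prkar2b, a regulatory subunit of protein kinase A, was higher in all 4, by 1.73 in BAT, 1.76 in CL, 1.31 in RS and 1.47 in RG on the log2 scale (adjusted p = 0.00185, 0.004, 0.0347 and 0.0185). Prkacb, another subunit of the kinase, was lower than in WAT by 0.635 in RS (adjusted p = 0.0241). In the mean of CL, RS and RG it was lower by 0.38 (adjusted p = 0.0366). G0s2, an inhibitor of ATGL, was higher by 1.52 in BAT (adjusted p = 0.000187), 1.53 in CL (adjusted p = 0.00058) and 1.18 in RS (adjusted p = 0.00649). In RG it differed from WAT by 0.55 (adjusted p = 0.126) and was lower than in BAT by 0.97 (adjusted p = 0.0174). Hilpda, another inhibitor of ATGL, was lower in BAT by 0.81 (adjusted p = 0.0138). The median difference of the list was 0.65, 0.78, 0.72 and 0.69 in BAT, CL, RS and RG. Without WAT 4 and RS 3 the counts were 5 and 1 in BAT, 6 and 0 in CL and 4 and 0 in RG. The medians in BAT, CL, RS and RG were then 0.30, 0.40, 0.58 and 0.47, with RS resting on RS 4 alone.

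Of 24 measured genes of droplet formation and other droplet proteins, 5 were higher and 4 lower in BAT than in WAT, 2 and 3 in CL, 3 and 2 in RS, and 2 and 0 in RG, with medians of 0.12, 0.21, 0.18 and 0.35. Over all probe sets 44%, 25.2%, 21.4% and 11.4% were called in these comparisons, with 27.6%, 15.2%, 11.1% and 5.19% higher. Medians over all probe sets were 0.18, 0.13, 0.135 and 0.10, so the BAT median of the list lay under that of all probe sets. Fitm2, which acts in droplet budding from the endoplasmic reticulum, was higher by 0.92 in CL (adjusted p = 0.0375), 1.22 in RS (adjusted p = 0.0221) and 1.24 in RG (adjusted p = 0.0173). Pcyt1a, the rate-limiting enzyme of phosphatidylcholine synthesis, was lower by 0.56 in CL (adjusted p = 0.0236) and 0.91 in RS (adjusted p = 0.005). Bscl2, encoding seipin, was higher by 0.95 in RS (adjusted p = 0.049). These single-gene calls come from the fit of all arrays and are not given gene by gene without WAT 4 and RS 3. Without WAT 4 and RS 3 the counts were 4 and 3 in BAT, 1 and 1 in CL, and 2 and 0 in RG. The medians in BAT, CL, RS and RG were then 0.05, 0.09, -0.01 and 0.30, with RS resting on RS 4 alone.

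Of 15 transcription factors and cofactors known to act on these genes, 7 were higher and 3 lower in BAT than in WAT, 5 and 1 in CL, 4 and 1 in RS, and 5 and 0 in RG. Over all probe sets 44%, 25.2%, 21.4% and 11.4% were called, with 27.6%, 15.2%, 11.1% and 5.19% higher. Without WAT 4 and RS 3 the counts were 5 and 3 in BAT, 5 and 1 in CL, and 5 and 0 in RG. Ppara, a nuclear receptor of fatty acid oxidation, was higher by 2.87 in BAT (adjusted p = 2.71e-05), 2.08 in CL (adjusted p = 0.000747) and 1.45 in RG (adjusted p = 0.0112), and differed by 0.77 in RS (adjusted p = 0.131). It was lower than in BAT by 2.10 in RS (adjusted p = 0.00934) and by 1.42 in RG (adjusted p = 0.0153). Against BAT the list had as many higher as lower, 2 and 2 in RS and 4 and 4 in RG. Over all probe sets 3.67% were called in RS against BAT, 2.34% lower. In RG against BAT 14.3% were called, 5.85% higher and 8.42% lower. Without WAT 4 and RS 3 the RG counts were again 4 and 4. RS then rested on RS 4 alone, and the median of the list against BAT moved from 0.025 to -0.15. Nrip1 was higher than in BAT by 1.17 in RS (adjusted p = 0.0108) and 1.27 in RG (adjusted p = 0.00154). Ppargc1a was higher than in WAT by 1.41 in CL (adjusted p = 0.00536), 1.13 in RS (adjusted p = 0.0336) and 1.46 in RG (adjusted p = 0.00909). Cebpd, an early factor of adipogenesis, was lower than in WAT by 1.88 in BAT (adjusted p = 1.86e-05), 1.23 in CL (adjusted p = 0.00102) and 0.93 in RS (adjusted p = 0.0114). Compared with BAT, Cebpd was higher by 0.95 in RS (adjusted p = 0.0403) and 1.57 in RG (adjusted p = 0.000685).

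Marker lists also differed in the comparisons with WAT. Over all probe sets 44%, 25.2%, 21.4% and 11.4% were called in BAT, CL, RS and RG, with 27.6%, 15.2%, 11.1% and 5.19% higher. Macrophage markers were lower in 20, 20, 20 and 19 of 21 in BAT, CL, RS and RG, and stromal markers in 15, 9, 13 and 6 of 16. Endothelial markers were lower in 9 of 15 in RS and 2 of 15 in RG, and none was called in BAT or CL. Brown adipocyte markers were higher in 12, 11, 8 and 7 of 14, with 1 lower in RS. Mature adipocyte markers were higher in 11, 6, 6 and 9 of 21, with none lower. Skeletal muscle markers were higher in 5, 3, 4 and 0 of 10, and 6 to 9 of the 10 were near background on every array. Mammary epithelial markers were lower in 4, 3, 0 and 1 of 8, and 1 to 6 of the 8 were near background. Without WAT 4 and RS 3, macrophage markers were lower in 20, 20 and 18 in BAT, CL and RG. In the same order, stromal markers were then lower in 15, 7 and 5, and mammary markers in 4, 3 and 3. Endothelial markers were then lower in 4, 0 and 11. Brown markers were then higher in 11, 10 and 7, and muscle markers in 6, 3 and 0. Mature adipocyte markers were higher in 8, 6 and 8, with 1 lower in BAT. Of all probe sets 38.9%, 19.5% and 7.9% were then called. RS rested on RS 4 alone, so its counts are not given. Its median difference from WAT moved from -2.525 to -1.29 for stromal and from -1.81 to -0.98 for endothelial markers. For brown markers it moved from 1.31 to 0.65. The part these cells played in the differences of the droplet genes from WAT was not tested.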

How the data were processed

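Expression was measured on 1-colour Affymetrix arrays from 15 samples of sorted mouse adipocytes, 2 ng of total RNA each, per the labels. Each deposited value is the log2 expression of a probe set on an array; per the submitters' processing notes the tools were RMA, affy 1.36.1 and Affymetrix Expression Console, with no order or settings. All 25206 probe sets (none missing) were kept as deposited, and symbols came from the Entrez number of each identifier. Arrays carry no read depth, and their number limits the precision.

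Groups were compared with limma 3.58.1 in R 4.3.3 (lmFit, contrasts.fit, eBayes): all 15 arrays in 1 model with 5 group means and 10 residual degrees of freedom, with two-sided tests, p-values adjusted by Benjamini-Hochberg within each comparison over all probe sets, and a threshold of 0.05. The model assumes an equal spread in all groups, RS included. The fit was tested on simulated data. All 8 genes are reported in every comparison of 12, 10 between pairs of groups and 2 of the mean of CL, RS and RG against WAT and BAT. From each other list up to 2 called genes with the largest increase and 2 with the largest decrease were eligible for naming, and G0s2, Ppara, Ucp1 and Adipoq are also given where they were not called. Profile neighbours are the 3 nearest named genes. The 8 genes and the lists were chosen with earlier results of these data known.

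Correlations between same-numbered arrays of different groups, across probe sets after removing group means, were negative in all 24 pairs (-0.88 to -0.05). Marker levels could still run the same way. The mature adipocyte level was the highest of its group in BAT 4 (0.23), CL 4 (0.52) and RG 4 (0.57). It was the lowest in WAT 4 (-1.85) and RS 4 (0.31). The labels do not say that equal numbers mark a shared animal, litter or day, and the numbers were not used as pairs. Alternatives were median centring, quantile normalization, a background filter (above the mark on at least 2 arrays), trend with robust fitting, array weights, the number as a block, fits of only the groups compared, omission of WAT 4 and RS 3, and omission of each array.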

Additional observations from a re-analysis of the deposited data

How the results depend on the processing

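Of 96 differences of the 8 genes in 12 comparisons, 37 were called; 11 of these were called in all 8 alternatives and all 15 single-array omissions, among them Cidea in BAT, CL, RS and RG against WAT and Plin5 in BAT and CL against WAT. No called difference reversed. Counts of called genes are given as the alternative against the count reported. With each array centred on its median, CL against WAT had 3 against 5 and RS against WAT 1 against 2. With quantile normalization these were 3 and 1, RG against WAT had 2 against 5, and RS against CL 1 against 2; BAT against WAT had 4 against 5, without Plin2. With array weights RS against WAT and RS against BAT had 1 each against 2, RS against CL 0 and CL against RG 3 against 0. With only the groups compared, RS against WAT had 1, RG against WAT 2, and RS against BAT and RS against CL 0. Without both WAT 4 and RS 3, CL against RG had 2 against 0. RS then held RS 4 alone, so its counts are not given. With the replicate block, CL against WAT had 2, RS against WAT 1, RG against WAT 2, the inguinal mean against WAT 3 against 6, and RS against BAT, RG against BAT, RS against CL and the inguinal mean against BAT (4 called) had 0; BAT against WAT had 4, without Plin2 (adjusted p = 0.069), and the Plin3 difference of RS from BAT had an adjusted p of 0.0529; it left 12 of the 37 calls, and for 0 of the 15 arrays was the best-correlated array one of equal number. The share of all probe sets called moved with these settings too. With array weights it was 10.4% in CL against RG (2.87% as reported) and 0.508% in RS against BAT (3.67%). With the block it was 1.38% in RG against BAT (14.3%) and 9.76% in CL against WAT (25.2%), and with quantile normalization 12.5% in CL against WAT. With only the groups compared it was 0.238% in RS against BAT and 0.0159% in RS against CL (1.27%). The cause of these changes was not tested. When single arrays were left out, the counts ranged over 5 to 6 in BAT against WAT, 2 to 5 in CL against WAT, 1 to 2 in RS against WAT, 1 to 5 in RG against WAT, 0 to 0 in CL against BAT and in RS against RG, 1 to 5 in RS against BAT, 1 to 7 in RG against BAT, 0 to 2 in RS against CL and in CL against RG, 3 to 6 in the inguinal mean against WAT and 1 to 5 in the inguinal mean against BAT. Cideb lay at or under the background mark on most arrays, which limits what its differences show.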
